A study of Mus musculus with 6 samples.

Results

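The genes of plasminogen activation in infarct macrophages were examined as a group of 5: Plau, which encodes the urokinase-type plasminogen activator (uPA), Plaur, which encodes its cell-surface receptor (uPAR), Plat, which encodes the tissue-type activator (tPA), and the serpin inhibitors Serpine2 (protease nexin-1) and Serpinb2 (plasminogen activator inhibitor-2, PAI-2). They were picked by name from the 54532 rows of the deposited count table, and each name matched 1 row. All 5 were abundant enough to be tested, among 14522 tested genes. In Myα5KO libraries Plaur and Serpinb2 were lower, by 1.53-fold and 5.46-fold, whereas Plau, Plat and Serpine2 did not pass the test. The Serpinb2 result was the less secure. Its counts were split in ITGA5 fl/fl libraries (213, 1419 and 1209, against 222, 138 and 217 in Myα5KO). Its call was also lost on the authors' length-scaled values, whereas that of Plaur held in every setting.

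Plasminogen circulates as an inactive precursor made by the liver, and uPA or tPA cut it to the protease plasmin. Macrophages hold uPA on their surface through uPAR, so that plasmin forms where the cell touches the matrix, where it dissolves fibrin and activates other proteases and growth factors. Serpins trap the activators in inactive complexes. In the healing infarct this system clears fibrin and lets leukocytes move through the wound.

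The libraries were made from polyadenylated RNA of Ly6G-negative, CD11b-positive cells, called macrophages in the labels, from the hearts of 12-week-old C57BL/6 mice 7 days after permanent ligation of a coronary artery. The 3 control libraries came from ITGA5 fl/fl littermates (the controls throughout), which carry floxed alleles of the integrin α5 gene and no Cre. The other 3 came from Myα5KO mice, ITGA5 fl/fl with LyzM-Cre, which acts in all cells with an active lysozyme M gene and not in macrophages only. Both groups share the floxed alleles and the infarct, and only the second carries Cre, so effects of Cre itself and of the deletion cannot be told apart. Myocardium of individual mice was digested, but whether each library was 1 heart is not stated. The p-values set a group difference against the spread between these libraries, which edgeR estimates partly from other genes. Total counts ranged from 15424451 to 18152357 in ITGA5 fl/fl and from 18232574 to 18419287 in Myα5KO libraries. The targeted gene Itga5 held 9666 to 10536 counts in controls and 895 to 939 after deletion. Macrophage markers were abundant, with 20798 to 24632 counts of Adgre1 (F4/80) per library, and Ly6g, the antigen used to remove neutrophils, had 0 to 2. Other granulocyte genes were present, as with S100a9 at 118 to 256 counts in controls and 309 to 1055 in Myα5KO libraries. Of 7 tested granulocyte genes 6 were higher in Myα5KO libraries, and Retnlg was not called. Of the 7 macrophage markers, 1 was higher (Fcgr1) and 1 lower (Lyz2, the locus that carries Cre), against 3.56% and 5.19% of all tested genes. A change in a bulk library can come from fewer cells of a type or from less RNA per cell, which cannot be told apart.

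The promoters of the 2 members that fell are shown because they differ in composition. RefSeq windows of the files' build (GRCm38.p6) were found for 3 of the 5 members, Plaur, Serpinb2 and Serpine2. Each sequence gives the 250 bases before the transcription start, 5′ to 3′, for Plaur on the plus strand (chr7:24462233-24462482) and for Serpinb2 on the plus strand (chr1:107511173-107511422). Capitals mark an AP-1 site (TGACTCA) or a TATA box (TATAAA).
Plaur: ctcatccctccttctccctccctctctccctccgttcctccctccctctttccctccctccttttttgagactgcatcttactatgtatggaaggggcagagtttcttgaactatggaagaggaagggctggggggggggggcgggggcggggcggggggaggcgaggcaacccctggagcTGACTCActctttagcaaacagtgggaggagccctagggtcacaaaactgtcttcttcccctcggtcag
Serpinb2: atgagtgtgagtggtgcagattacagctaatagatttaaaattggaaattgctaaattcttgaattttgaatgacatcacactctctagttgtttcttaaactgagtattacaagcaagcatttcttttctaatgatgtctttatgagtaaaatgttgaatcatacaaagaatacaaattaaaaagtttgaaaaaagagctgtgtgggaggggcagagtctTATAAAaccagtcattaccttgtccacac
The letters TGACTCA, searched on both strands, began 69 bases before the Plaur start and were absent from the Serpinb2 window. They occurred in 4.46% of all 32851 RefSeq windows of this length. TATAAA began 29 bases before the Serpinb2 start, was absent from the Plaur window, and occurred in 12.4% of windows. Serpinb2 has another RefSeq window (chr1:107511260-107511509, not printed), in which the same TATAAA begins 116 bases before the start. The GC box GGGCGG occurred 3 times in the Plaur window, 6 times in that of Serpine2 and not in the Serpinb2 window shown, against 32.7% of windows with it at least once. The cyclic AMP response element TGACGTCA (1.55% of windows) and the E-box CACGTG (6.02%) were in none of these windows. Letters in a window describe the sequence only.

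To see which arm of the system these cells expressed, levels were first compared per length, as FPKM (counts that the authors scaled to gene length and library size). In ITGA5 fl/fl macrophages Plau had 187 ± 12.5 FPKM and Plaur 179 ± 6.08 FPKM (SD, n = 3 each). These levels of activator and receptor lay within the spread of the libraries, and both exceeded 98.2% of tested genes. Serpinb2 followed with 23.5 ± 15.4 FPKM, Plat with 3.87 ± 0.228 FPKM and Serpine2 with 2.03 ± 0.116 FPKM (SD, n = 3 each). In Myα5KO macrophages the order was Plau at 176 ± 30.1, Plaur at 117 ± 1.16, Serpinb2 at 4.31 ± 1.03, Plat at 3.25 ± 0.165 and Serpine2 at 1.68 ± 0.0331 FPKM. There Serpinb2 (3.13 to 5.02 FPKM) overlapped Plat (3.06 to 3.38 FPKM), which it exceeded in every control library. Both groups thus held urokinase transcripts far above tissue-type activator transcripts, with a Plau-to-Plat ratio of FPKM between 44.1 and 58.5 in the 6 libraries. No count of plasminogen itself (Plg) was found in the 6 libraries (0 counts, which allows up to 3 per library).

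Of the 5 members, 2 were called lower and 0 higher with the threshold of 0.05 on the adjusted p (edgeR quasi-likelihood test), and 4 had an unadjusted p under 0.05. All 4 were lower, and lower values at this unadjusted p were found for 11.4% of tested genes. In the same test 8.75% of all tested genes were called, 5.19% lower and 3.56% higher. All 5 members had a negative log2 fold change, as did 47.2% of all tested genes, but that of Plau turned positive (0.052) without Myα5KO replicate 1. The median was -0.26 over the members and 0.0146 over all tested genes. The members were chosen with earlier results of these data known, so the comparisons with all tested genes are descriptions only. For 4 of the 5, every Myα5KO library lay below every ITGA5 fl/fl library, which held for 13.8% of tested genes (14.9% were apart in the other direction), and the same 4 were apart under library totals, median-ratio and upper quartile scaling.

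**Figure D1:**
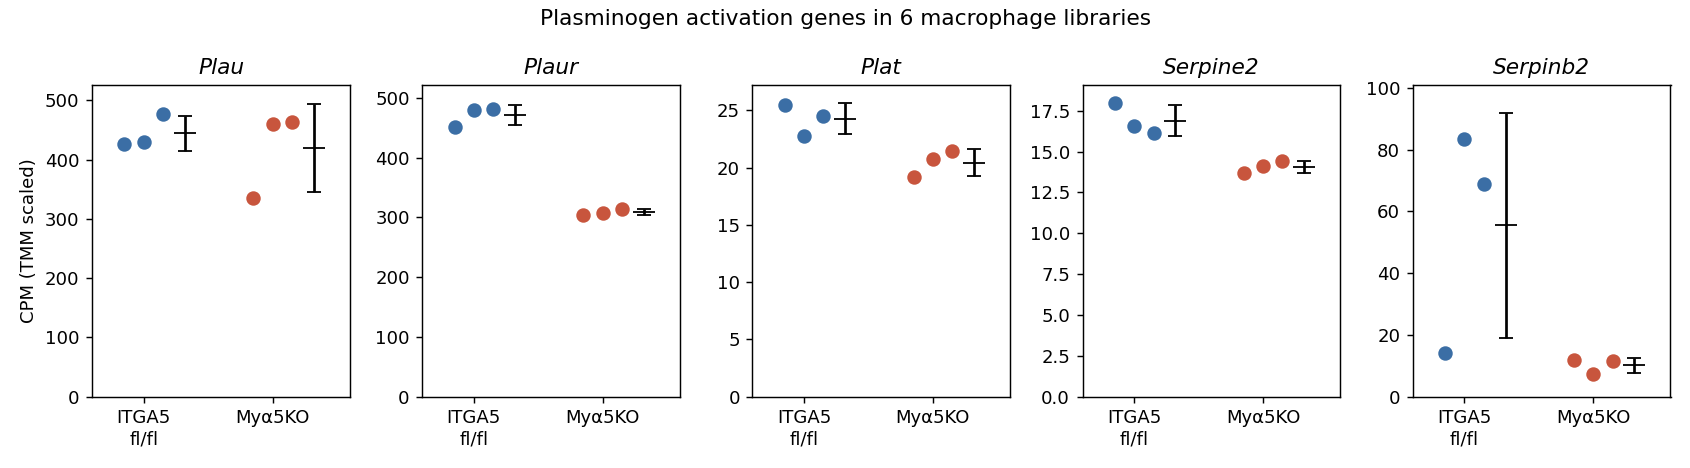
Expression of the 5 genes in CPM (counts scaled to library size with TMM factors, each axis from 0) in 3 ITGA5 fl/fl (blue) and 3 Myα5KO (red) libraries, in the order of their replicate numbers; black marks are the mean ± SD. The groups overlapped for Plau and were apart for Plaur, Plat, Serpine2 and Serpinb2, where ITGA5 fl/fl replicate 1 (14.3 CPM) was close to the Myα5KO libraries (7.38 to 11.8 CPM).

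The activators were described first. Plau (ENSMUSG00000021822, GRCm38 chromosome 14, 20836660 to 20843385, plus strand, protein coding) had counts of 6353, 7303 and 8394 in controls and of 6280, 8593 and 8821 in Myα5KO macrophages. Scaled to library size with TMM factors, these were 426, 429 and 478 CPM and 334, 460 and 464 CPM. The groups overlapped, and Myα5KO replicate 1 was the lowest of the 6. The log2 fold change (Myα5KO over ITGA5 fl/fl) was -0.083 (SE 0.11, 95% interval -0.31 to 0.15, edgeR adjusted p 0.698). A fall of more than 0.31 or a rise of more than 0.15 on the log2 scale lies outside this interval. Without Myα5KO replicate 1 the value turned to 0.052 (edgeR adjusted p 0.758), so no direction can be given for Plau.

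Plat (ENSMUSG00000031538, chromosome 8, 22757727 to 22782844, plus strand, protein coding) encodes the activator best known from the vessel wall and was scarce. Its counts were 380, 388 and 430 in controls and 360, 387 and 408 in Myα5KO macrophages, or 25.5, 22.8 and 24.5 CPM against 19.2, 20.7 and 21.5 CPM. The groups did not overlap, by a narrow margin. The spread between libraries (coefficient of variation 5.59% and 5.71%) was close to what counting alone gives at this depth (5.02% and 5.10%). The log2 fold change of -0.25 (SE 0.089, 95% interval -0.44 to -0.053) had an unadjusted p of 0.0161 and did not pass the test over all genes (edgeR adjusted p 0.112). Lower values with such an unadjusted p under 0.05 were found for 11.4% of tested genes.

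The receptor gave the tightest difference of the 5. Plaur (ENSMUSG00000046223, chromosome 7, 24462484 to 24475968, plus strand, protein coding) had counts of 6741, 8153 and 8472 in controls and of 5709, 5744 and 5984 in Myα5KO macrophages. In CPM these were 452, 479 and 482 against 304, 307 and 315. The groups were far apart and each was narrow, with a coefficient of variation of 3.53% in ITGA5 fl/fl and 1.78% in Myα5KO. Plaur fell to 65.5% of its control level, with -0.61 on the log2 scale (SE 0.064, 95% interval -0.75 to -0.47, edgeR adjusted p 0.000153). By p-value it ranked 23 of 14522 tested genes. The call held under each of the 16 alternative settings, with values from -0.64 to -0.53.

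The proportion of activator to receptor transcripts was described per library and was not tested. The ratio of Plau to Plaur FPKM, which does not depend on library scaling, was 1.04, 0.990 and 1.10 in controls and 1.22, 1.65 and 1.63 in Myα5KO libraries. The ratio was higher in each Myα5KO library than in any control. Myα5KO replicate 1, the library with the lowest Plau, lay nearest to the controls.

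The inhibitors came next. Serpinb2 (ENSMUSG00000062345, chromosome 1, 107511423 to 107535478, plus strand, protein coding), a clade B serpin that macrophages make when activated, had counts of 213, 1419 and 1209 in controls and of 222, 138 and 217 in Myα5KO macrophages. These were 14.3, 83.3 and 68.8 CPM against 11.8, 7.38 and 11.4 CPM. The groups did not overlap, but ITGA5 fl/fl replicate 1 stood with the Myα5KO libraries rather than with the other 2 controls. Its exact Poisson 95% interval of 185 to 244 counts covers counting error only and lies far below the counts of those controls. The coefficient of variation of the controls was 65.6%, where counting alone gives 3.25%.

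The Serpinb2 difference was -2.45 on the log2 scale (SE 0.44, 95% interval -3.39 to -1.50, edgeR adjusted p 0.00435), which was the sixth lowest value of all tested genes. Without ITGA5 fl/fl replicate 1 it was -2.90 (edgeR adjusted p 1.05e-07), and without ITGA5 fl/fl replicate 2 it was -2.04 (edgeR adjusted p 0.0181). The call was lost on the deposited FPKM values, with -1.92 (limma adjusted p 0.112) on log2(FPKM + 1) and -2.10 (limma adjusted p 0.109) on log2(FPKM + 0.1). Adjusted p for Serpinb2 ran from 1.05e-126 (edgeR, no count filter) to 0.112 (limma) across all 16 alternatives. The fit without a count filter had an SE of 0.10 against 0.44 as reported, at nearly the same estimate (-2.45). Its p-value is therefore not a guide to the spread of the controls. Serpinb2 shares 291 of its 2349 exonic bases with Serpinb10 on the same strand, so its count is uncertain to that extent.

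Other genes of the Serpinb2 locus were examined, as a choice made after their values were seen. Serpinb10 (ENSMUSG00000092572, chromosome 1, 107529003 to 107549271, plus strand) had counts of 17, 54 and 75 in controls and of 26, 25 and 33 in Myα5KO macrophages. ITGA5 fl/fl replicate 1 was low here too, and the difference did not pass the test (log2 fold change -0.96, SE 0.37, edgeR adjusted p 0.132). How reads in the shared bases were counted is not stated, so the 2 counts may not be independent. Serpinb8, the next serpin at a distance of 54527 bases, ranged from 46.9 to 49.2 CPM in controls and from 48.0 to 55.4 CPM in Myα5KO libraries (log2 fold change 0.11, edgeR adjusted p 0.372). The 9 nearest serpin genes on the other side of Serpinb2 held at most 6 counts in any library.

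Serpine2 (ENSMUSG00000026249, chromosome 1, 79794197 to 79861180, minus strand, protein coding), an inhibitor of uPA, tPA and thrombin that many connective tissue cells make, was the scarcest of the 5 per length. Its counts were 268, 282 and 284 in controls and 257, 264 and 274 in Myα5KO macrophages, or 18.0, 16.6 and 16.2 CPM against 13.7, 14.1 and 14.4 CPM. The groups overlapped in raw counts, which are not adjusted for library size, and were apart in CPM. The log2 fold change was -0.26 (SE 0.10, 95% interval -0.47 to -0.056, unadjusted p 0.0166) and did not pass the test over all genes (edgeR adjusted p 0.114). It was -0.18 when libraries were scaled by their totals (edgeR adjusted p 0.236), and -0.16 for Plat (edgeR adjusted p 0.245).

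**Figure D2:**
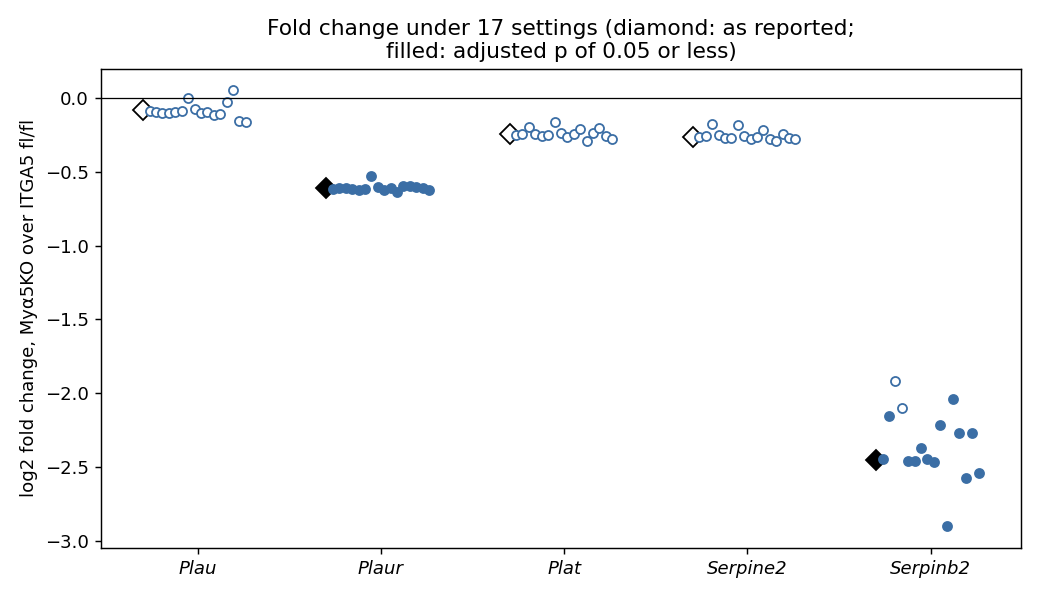
Log2 fold change of the 5 genes under 17 settings: the test as reported (diamond) and 16 alternatives (circles), filled where the adjusted p was 0.05 or less. Plaur was filled throughout (-0.64 to -0.53), Serpinb2 except on both FPKM scales, and Plau, Plat and Serpine2 in none.

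To place the 5 genes within their pathway, 30 further genes of the plasminogen system were counted. Of these 19 could be tested, and 1 was lower and 0 higher by the edgeR test with the same threshold. At that threshold 5.19% of all tested genes were lower and 3.56% higher. An unadjusted edgeR p under 0.05 was found for 3, Plgrkt and Mrc2 (lower) and St14 (higher). Lower values at this unadjusted p were found for 11.4% of tested genes. The median log2 fold change of the 19 was -0.094. Among 7 further inhibitors and regulators, 4 were tested and 0 were called in the edgeR test (0 at an unadjusted p under 0.05, 0 by DESeq2 and 0 by voom). The most abundant of these was Thbd (thrombomodulin), at 86.2 ± 5.65 CPM in controls against 83.9 ± 9.54 CPM (log2 fold change -0.039, edgeR adjusted p 0.827). Serping1 (the C1 inhibitor) followed, at 10.4 ± 0.928 FPKM in controls against 9.34 ± 1.30 FPKM (log2 fold change -0.15, edgeR adjusted p 0.432; SD, n = 3 each).

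The proportion of activator to inhibitor transcripts was compared per library. The ratio of Plau to Serpinb2 FPKM was 29.6, 5.11 and 6.89 in controls and 28.1, 61.8 and 40.3 in Myα5KO libraries, and the groups overlapped through ITGA5 fl/fl replicate 1.

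Of 14 genes for plasminogen, its surface receptors and the partners of urokinase and its receptor, 13 were tested and 1 was lower. Over all tested genes 5.19% were lower. Plgrkt (ENSMUSG00000016495, chromosome 19, 29348599 to 29367390), a transmembrane plasminogen receptor of macrophages, was at 50.3, 45.9 and 46.5 CPM in controls against 37.5, 37.8 and 42.2 CPM after deletion. The groups did not overlap, and the log2 fold change was -0.28 (SE 0.076, edgeR adjusted p 0.0359). Plgrkt was not called under 9 of the 16 alternatives, among them 5 of the 6 fits without 1 library. The most abundant genes of this list were Itgb2 (the β2 integrin chain, a partner of uPAR), at 611 ± 39.1 CPM against 605 ± 19.1 CPM (log2 fold change -0.016, edgeR adjusted p 0.922), and Lrp1 (the receptor that clears uPA and inhibitor complexes), at 2559 ± 173 CPM against 2271 ± 464 CPM (log2 fold change -0.17, edgeR adjusted p 0.428; SD, n = 3 each). Of 9 plasmin substrates and contact-phase genes 2 were tested, and 0 were called in the edgeR test (1 at an unadjusted p under 0.05). Hgf, a growth factor that plasminogen activators can activate, was at 48.7 ± 10.6 CPM in controls against 49.4 ± 7.69 CPM (log2 fold change 0.023, edgeR adjusted p 0.944). St14 (matriptase) was at 0.350 ± 0.0218 FPKM against 0.467 ± 0.0540 FPKM (log2 fold change 0.42, edgeR adjusted p 0.204). The fibrinogen chain genes Fga, Fgb and Fgg held 0 to 2 counts in each library.

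**Figure D3:**
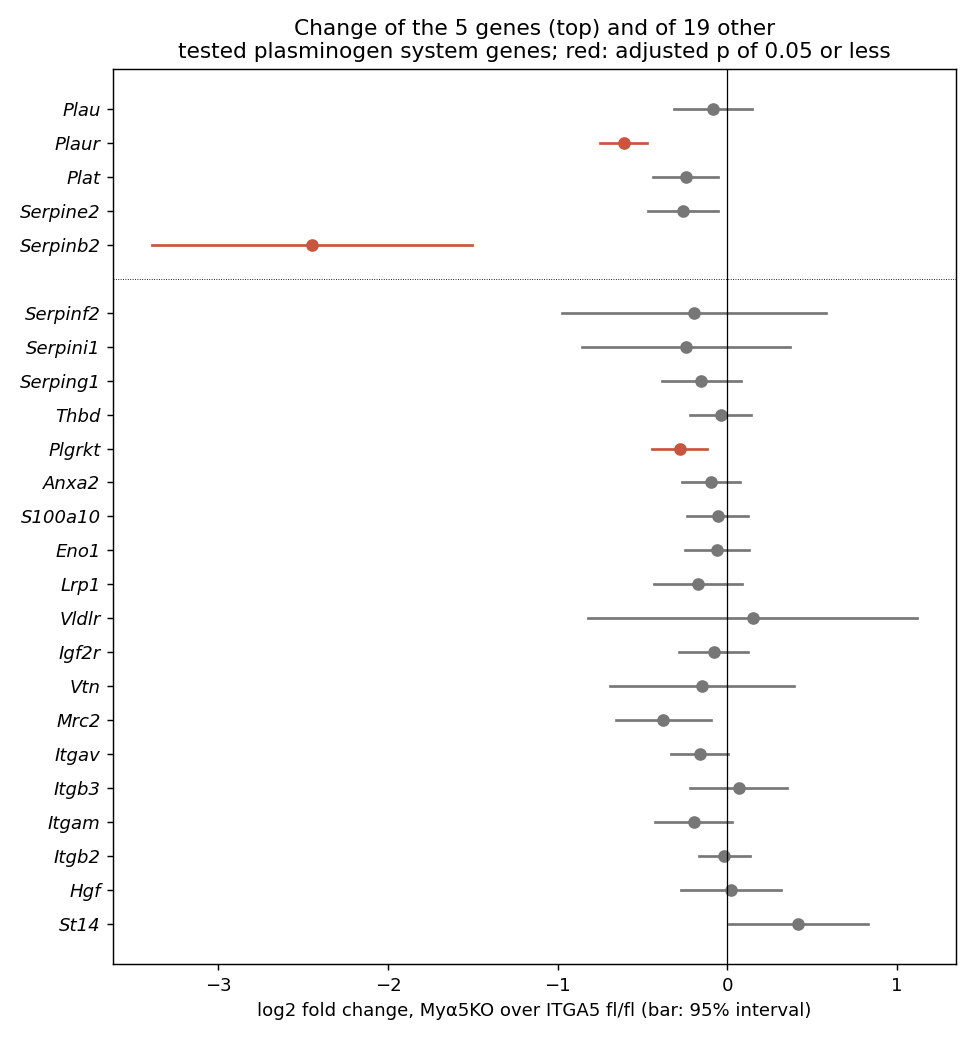
Log2 fold change with its 95% interval for the 5 genes (above the dotted line) and 19 tested genes of the wider plasminogen system; red marks genes called by edgeR at the 0.05 threshold. Plaur, Serpinb2 and Plgrkt lay below 0 and were called. The interval of Serpinb2 (-3.39 to -1.50) did not overlap that of Plaur (-0.75 to -0.47). However, the Serpinb2 controls were split (14.3, 83.3 and 68.8 CPM), and its call was lost on both FPKM scales.

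The serpin family was then counted. Of 65 other Serpin genes considered, 26 had 0 counts in every library and 16 were tested. In the edgeR test 0 of the 16 were called (0 called by DESeq2 and 0 by voom), with a median log2 fold change of -0.15. Over all tested genes 8.75% were called. An unadjusted edgeR p under 0.05 was found for 5 of the 16. Serpinb10 and Serpinh1 were lower, and Serpina3g, Serpinb6b and Serpinb9 higher. Lower values at this unadjusted p were found for 11.4% of tested genes. When libraries were scaled by their totals, 3 of these serpin genes were called, Serpina3g, Serpinb6b and Serpinb9, all higher. That scaling called 11.9% of all tested genes.

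The genes most like each member were found by Pearson r of log2 CPM over the 6 libraries, among 9353 well expressed genes. These values are descriptions over 6 libraries that share the group difference and the scaling. Because the genes were picked by r, a pattern or direction of change like that of the member follows from the choice. An r over 0.95 was reached by 195 genes for Plaur, 74 for Serpine2, 49 for Plat, 37 for Serpinb2 and 11 for Plau, so the 3 genes named for each are the top of longer lists. Plaur was most like Bhlhe40 (r 0.993), a transcription factor gene, Cxcl2 (r 0.992), a neutrophil chemokine gene, and Fth1 (r 0.990), the ferritin heavy chain gene. All 3 were lower in Myα5KO libraries, with log2 fold changes of -0.43, -0.81 and -0.42 (edgeR adjusted p 0.00143, 0.000139 and 0.00508). As deviations from the group means the r values were 0.582, 0.884 and 0.519, lower than over the 6 libraries.

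Serpinb2 was most like Alox15 (r 0.991), which encodes a lipoxygenase, Mlxipl (r 0.990), which encodes the glucose-responsive factor ChREBP, and Cd24a (r 0.988). Alox15 was at 8.18, 48.9 and 31.8 CPM in controls against 7.77, 3.69 and 7.47 CPM, and Mlxipl at 4.42, 12.5 and 14.5 CPM against 3.89, 2.51 and 3.89 CPM. ITGA5 fl/fl replicate 1 was low for these genes as it was for Serpinb2, which follows from picking them by r over these libraries. For deviations from the group means r was at least 0.971 for each of the 3. Their log2 fold changes were -2.24, -1.62 and -0.56 (edgeR adjusted p 0.00832, 0.00890 and 0.0209).

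**Figure D4:**
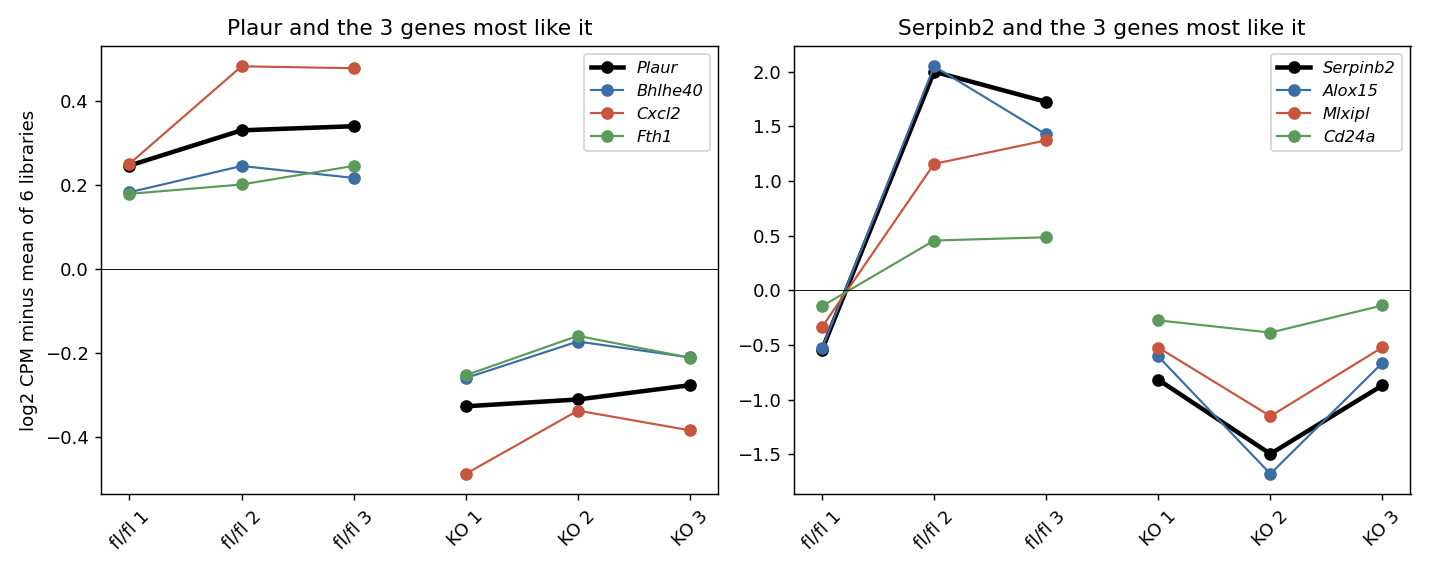
Log2 CPM minus the mean of the 6 libraries for Plaur (left) and Serpinb2 (right), in black, and the 3 genes most like each; lines join the libraries of a group for 1 gene and mark no order. Plaur and its 3 genes separated the groups evenly, whereas Serpinb2 and its 3 genes were high in ITGA5 fl/fl replicates 2 and 3 only. The genes were picked for this likeness, so the shared shapes follow from the choice.

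The other members had other company. Plat was most like Prnp (r 0.994), Rell1 (r 0.988) and Dazap2 (r 0.987), and Serpine2 most like Atg16l2 (r 0.991), Tiparp (r 0.989) and Foxo1 (r 0.988). Plau was most like Rpl6 (r 0.985), Eif3i (r 0.979) and Plscr3 (r 0.971). None of these 9 genes was called in the edgeR test, where adjusted p ranged from 0.0652 (Atg16l2) to 0.786 (Rpl6). Between members, r over the 6 libraries was highest for Plat with Serpine2 (0.939) and lowest for Plau with Serpinb2 (0.231). As deviations from the group means, r for these pairs was 0.693 and 0.0141. Among all pairs of members it then ran from -0.851 (Serpine2 with Serpinb2) to 0.864 (Plaur with Serpinb2).

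Markers of other cells moved between the groups, and their part in the results was not tested. Over all tested genes 5.19% were called lower and 3.56% higher. Alox15 and Prg4 belong to a list of 8 genes of body cavity macrophages, of which 7 were tested and 3 were lower (Prg4, Alox15 and Selp). The list summed to 109.9, 212 and 183 CPM in controls against 98.1, 69.3 and 82.6 CPM, with ITGA5 fl/fl replicate 1 again the lowest control. Without Prg4 and Alox15 the sums were 81.7, 98.9 and 96.7 CPM against 78.3, 57.5 and 65.7 CPM. Gata6, the defining factor of these macrophages, had 50 to 73 counts in controls and 57 to 64 after deletion (log2 fold change -0.19, edgeR adjusted p 0.575). Eosinophils also express Alox15. Of 5 eosinophil genes 3 were tested and 0 were called in the edgeR test (0 at an unadjusted p under 0.05), with sums of 5.23 to 6.64 CPM against 4.55 to 7.13 CPM and 0 to 3 counts of Epx. The 5 mast cell genes summed to at most 1.33 CPM in any library and were too scarce to test.

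For Plat and Serpine2, which connective tissue and vessel cells express, 4 lists were set beside the values. The share called over all tested genes was 5.19% lower and 3.56% higher. The 9 fibroblast genes summed to 1626 to 1905 CPM in controls against 1218 to 1585 CPM, with all 9 log2 fold changes negative, a median of -0.28 and 1 gene called lower (Postn). The 9 endothelial genes summed to 363 to 403 CPM and 380 to 435 CPM, with 1 higher (Kdr) and 1 lower (Cldn5). The 7 mural genes (165 to 182 CPM and 141 to 182 CPM) and the 5 mesothelial genes (8.81 to 11.9 CPM and 7.47 to 11.3 CPM) overlapped between the groups, with 0 called in the edgeR test (0 and 1 at an unadjusted p under 0.05).

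For Plaur, lists of leukocytes were counted, beside 3.56% of all tested genes called higher and 5.19% called lower. Of 6 monocyte genes 3 were higher, with sums of 303 to 385 CPM in controls against 459 to 477 CPM. Of 7 tested granulocyte genes 6 were higher (33.4 to 55.7 CPM against 75.1 to 196 CPM). Of 7 dendritic cell genes 1 was higher (93.1 to 121 CPM against 113 to 125 CPM), and of 5 tested lymphocyte genes 1 was higher (50.5 to 79.8 CPM against 79.8 to 128 CPM, where the ranges touched). Of 4 tested cardiomyocyte genes 2 were lower (14.5 to 16.2 CPM against 9.05 to 10.6 CPM).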

How the data were processed

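Cardiac macrophage libraries of 3 ITGA5 fl/fl and 3 Myα5KO infarcts, grouped by their titles, were analysed. Per the methods and the submitters' processing notes, reads were cleaned of adapters, unknown bases and low quality and mapped to GRCm38.p6 by TopHat2 2.0.9. The authors deposited counts per gene from HTSeq 0.6.1, without normalization. Strand and overlap settings are not stated. The authors also deposited FPKM, which equal the counts divided by gene length and by a constant per library proportional to the DESeq2 size factor. The deposited gene length equals the exonic bases of GENCODE M21 for all 5 genes.

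The main test was the edgeR 4.0.16 quasi-likelihood fit under R 4.3.3 (TMM, default filter with minimum count 10 and total 15, no covariate), two-sided, with Benjamini-Hochberg adjustment over 14522 genes. Negative values mean lower in Myα5KO. Alternatives were DESeq2 1.42.0, limma 3.58.1 (voom, and FPKM with pseudocounts of 1 and 0.1 for genes with at least 1 FPKM in 3 libraries), other scalings and filters, the replicate number as a block, and each library left out. The scripts were tested on simulated data. Intervals cover counting error only where named Poisson.

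The members and lists were chosen with earlier results of these data known. Named were the members, Itga5, called genes of the plasminogen and serpin lists, the 2 most abundant genes of each plasminogen list, and the 3 genes most like each member (mean of at least 100 counts, no predicted or RIKEN symbols). Genes outside this rule, such as Serpinb10, Serpinb8, markers and Plg, were named after their values were seen. 1 gene is not reported here and was left out of the counts of its lists, though not of the fits.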

Additional observations from a re-analysis of the deposited data

How the results depend on the processing

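Itga5 and Plaur kept their direction and call under all 16 alternatives, and Plat and Serpine2 their negative sign without a call. When each library was left out in turn, the log2 fold change ranged from -3.69 to -3.58 for Itga5, -0.64 to -0.59 for Plaur, -2.90 to -2.04 for Serpinb2, -0.29 to -0.21 for Plat, -0.29 to -0.22 for Serpine2 and -0.16 to 0.052 for Plau, whose value of 0.052 came without Myα5KO replicate 1. Between 616 and 1091 genes were called in these fits, with 2 members lower in each, 0 to 1 other plasminogen system genes and 0 to 1 other serpin genes (Serpinb10, without ITGA5 fl/fl replicate 1). The plasminogen system gene was Itgam without ITGA5 fl/fl replicate 1, Mrc2 without Myα5KO replicate 1 and Plgrkt without Myα5KO replicate 3. The low end, 616 genes, came without ITGA5 fl/fl replicate 3; 723 were called without ITGA5 fl/fl replicate 2 and 819 without Myα5KO replicate 2, against 1271 with all libraries.

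On log2(FPKM + 1), 472 genes, 1 member (Plaur) and 0 other plasminogen system genes were called, and Serpinb2 was at -1.92 without a call. On log2(FPKM + 0.1) the numbers were 448, 1 and 0, with Serpinb2 at -2.10. The cause was not tested. Library totals scaling called 0 other plasminogen system genes and 3 other serpin genes and gave 1212 genes higher and 518 lower, against 517 and 754 as reported. Without a count filter 2 other serpin genes (Serpina3g and Serpinb10) and 2 other plasminogen system genes (Plgrkt and Mrc2) were called. With the replicate block 0 other plasminogen system genes were called (Plgrkt was lost) and 1181 genes in all. Libraries of the same number did not deviate together (correlations over genes of 0.0509, -0.0576 and 0.0434), and not every library was most like its own number, so the numbers were not taken as pairs. For Plat and Serpine2, at 257 to 430 counts, counting error (5.02% to 6.14%) limits the precision, whereas the spread of Serpinb2 between Myα5KO libraries (24.0%) exceeded its counting error (7.21%).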
